A study of Rattus norvegicus with 3 samples.

Results

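Respiratory complexes III, IV and V were examined in rat kidney through the genes that encode their nuclear subunits. A gene belonged to them where its current or older symbol in RefSeq's gene table for GRCr8 starts with Uqcr, Cox4i, Cox5, Cox6, Cox7, Cox8 or Atp5, or is Cyc1 or Cycs, and where a probe of the array other than a control carries its accession. The table holds 122 genes with such a name, 60 of them protein coding by their current symbol, and 44 had a matched probe. Of these, 42 passed the filter on dim probes and were tested among 14179 genes in all, of which 5271 are known on the array by an accession without a matched symbol. They comprise 8 subunits of complex III, 13 of complex IV, 15 of complex V and 6 other genes. Cox6a2 and Cox8c had a probe that did not pass the filter, and no probe was matched to the subunit genes Cyc1, Cox7a1, Cox7b2, Atp5mc3 and Atp5mpl.

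Complex III passes electrons from ubiquinol to cytochrome c, complex IV passes them on to oxygen, and both pump protons across the inner mitochondrial membrane. Complex V, the ATP synthase, lets the protons flow back and makes ATP. The tubules of the kidney are rich in mitochondria, because the sodium pump that drives reabsorption uses much ATP.

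Kidney RNA of male Sprague-Dawley rats, 5 weeks old at purchase, that drank water with 200 ppm gamma-aminobutyric acid (GABA) was compared with kidney RNA of rats without GABA on 3 Agilent arrays with 2 colours. The treated group, G200, received GABA for 3 weeks after 1 week of acclimation, and the tissue of both groups was a kidney region free of tumour. The labels give 3 rats per group and the study's methods give 8. Cy3 (green) always marked the control and Cy5 (red) always marked G200, on 1 slide read in 1 scan, so an effect of the dyes and an effect of GABA cannot be told apart. All values below are log2 ratios of G200 over control after loess normalization, in which a value above 0 means a higher level in G200.

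Beside the noise of the spots, the control channels varied little between the arrays over the probes with replicate spots. Over 1126 probes with replicate spots, the squared difference between a pair of arrays was 0.356 to 0.497 times the noise of the spots in green and 2.38 to 6.53 times in red. On this basis the control was counted as 1 sample and G200 as 3, an assumption that a comparison with spot noise alone cannot settle. Control log2 intensity did not move alike in all members. On replicates 1, 2 and 3 it was 8.46, 8.96 and 9.03 in Cox6c-ps1 but 9.74, 9.06 and 9.34 in Cox7c. The test of the mean ratio against 0 carries no spread among control animals. Precision is that of 3 arrays. Means are given ± SD over them.

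Among the 42 genes tested, 14 rose and 5 fell at an adjusted p under 0.05 in limma's test, which is 33.3% and 11.9%. Over all 14179 genes the shares were 11.6% higher and 25.9% lower, and over the 8908 with a symbol they were 11.8% and 22.4%. The other 23 genes did not pass the threshold. The 14 rises include the pseudogene Cox6c-ps1. Among the 36 tested subunits of the complexes alone, 13 rose and 5 fell (36.1% and 13.9%). After loess with all 3 arrays no change reached 2-fold, whereas Atp5f1c did so without replicate 2 (1.16, adjusted p = 0.00656 from limma) and several members with median centring, Atp5f1c most at 1.55. On all 3 arrays alike, 22 genes had a positive and 7 a negative ratio. The median over the 42 genes was 0.13, and it was -0.05 over all genes. Without replicate 3 only Atp5mg was called higher and Cox4i1 lower, beside 182 higher and 1429 lower of all genes. The counts were 12 and 4 without replicate 1, beside 862 and 2659 of all genes. They were 14 and 5 without replicate 2, beside 1616 and 3349 of all genes. The rises kept their sign under each alternative run, whereas the 5 falls turned positive when arrays were only median centred. In that run 35 of the 42 genes were called higher and 0 lower, beside 4990 and 1245 of all 14179 genes.

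**Figure D1:**
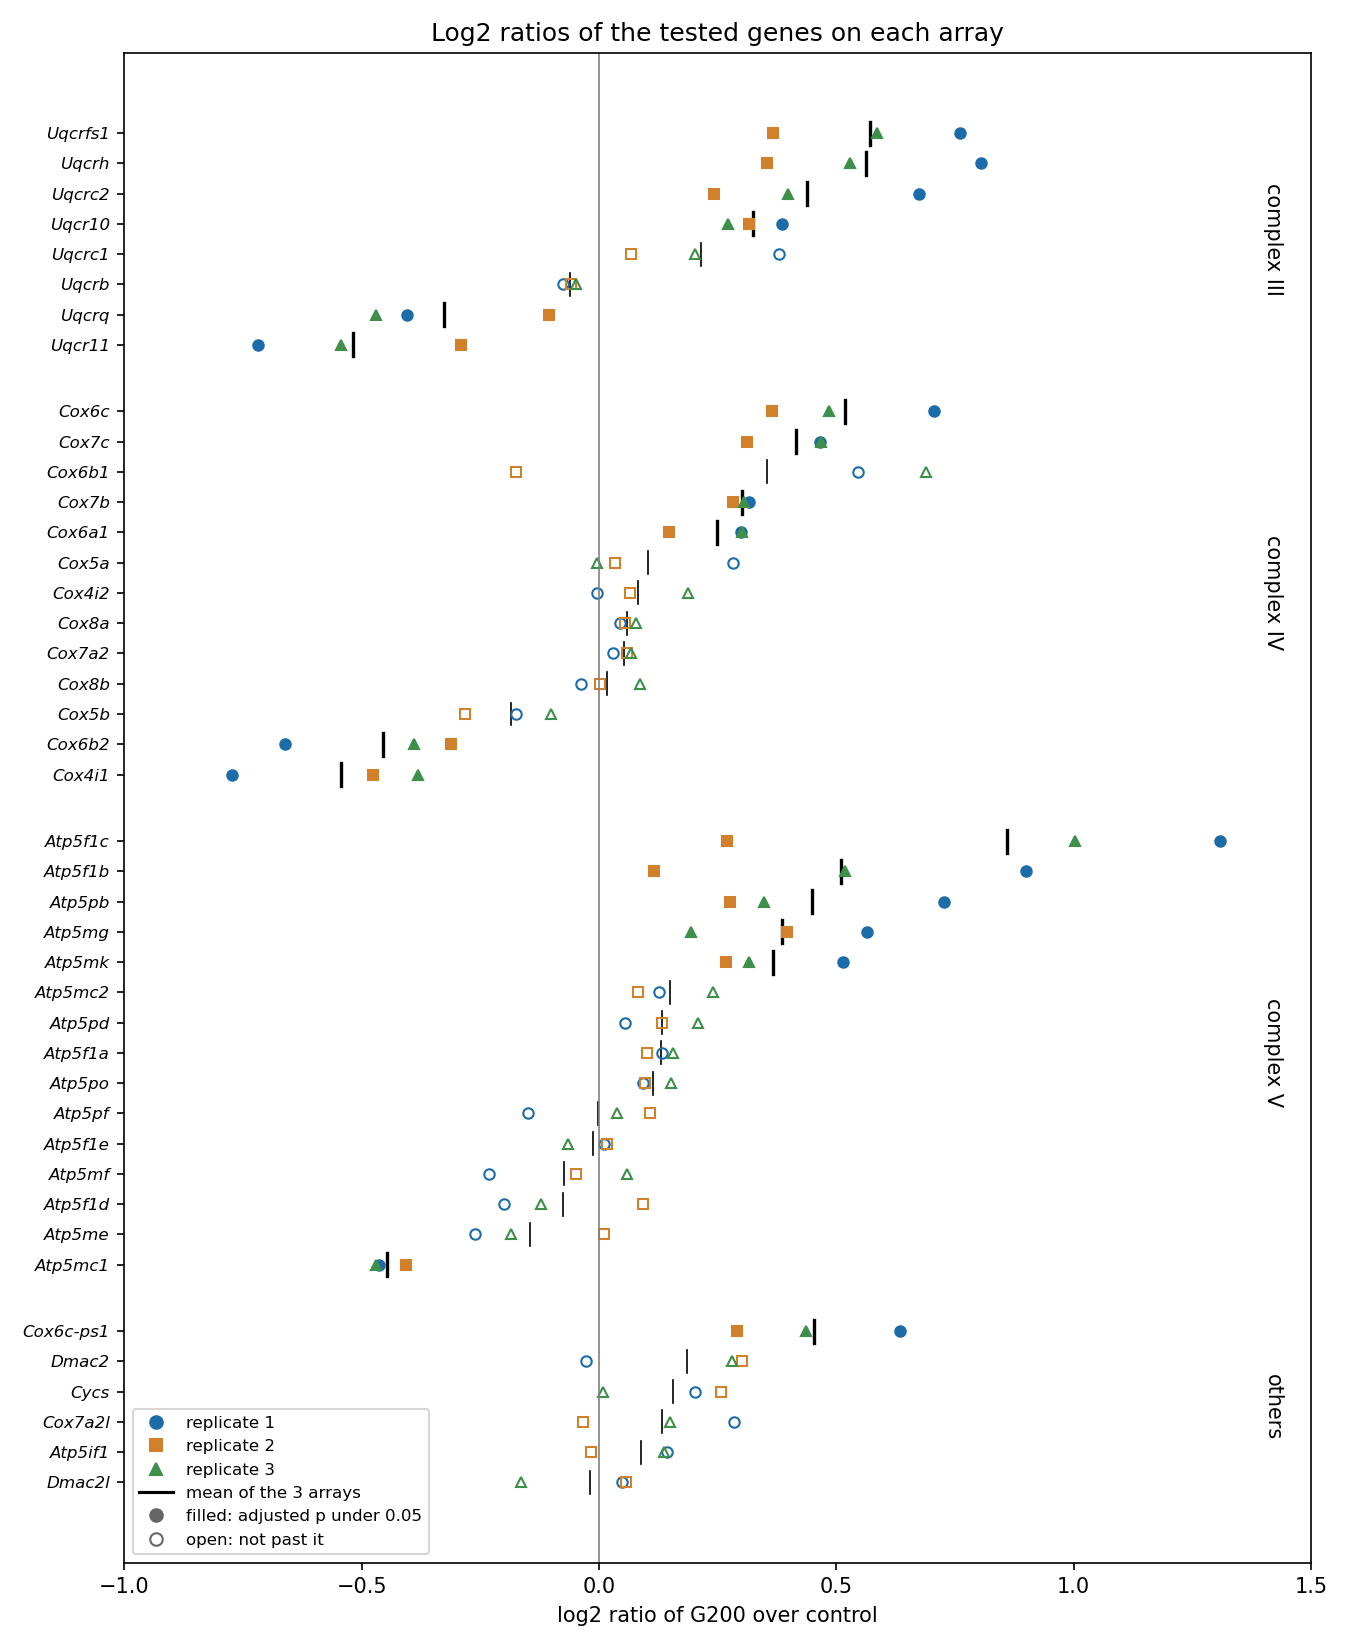
Log2 ratio of G200 over control (x axis) for each of the 42 tested genes (y axis) on replicates 1, 2 and 3, sorted by the mean within complexes III, IV and V and the 6 other genes; filled symbols passed an adjusted p of 0.05 and short lines are means. Each complex holds genes on both sides of 0, from 0.86 in Atp5f1c to -0.54 in Cox4i1, and the falls turned positive with median centring in place of loess.

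In complex III 4 of 8 subunits were higher and 2 lower after loess (50% and 25%, beside 11.6% and 25.9% of all genes). The counts became 6 and 0 with median centring and 0 and 0 without replicate 3. Of all 14179 genes 4990 and 1245 were called with median centring and 182 and 1429 without replicate 3. The Rieske iron-sulfur protein gene Uqcrfs1, whose product hands electrons towards cytochrome c1, had log2 ratios of 0.76, 0.37 and 0.59 on replicates 1, 2 and 3, a mean of 0.57 ± 0.20 (n = 3, adjusted p = 0.00600 from limma) or 1.49-fold. Uqcrh, the hinge protein that lies at cytochrome c1, had ratios of 0.81, 0.35 and 0.53 (mean 0.56 ± 0.23, n = 3, adjusted p = 0.00816 from limma). In both genes all 3 arrays lay above 0, with replicate 1 the highest and replicate 2 the lowest. The core proteins gave unequal results. Uqcrc2 rose, with 0.67, 0.24 and 0.40 (mean 0.44 ± 0.22, n = 3, adjusted p = 0.0162 from limma). Its partner Uqcrc1 had 0.38, 0.07 and 0.20, a mean of 0.22 that did not pass (adjusted p = 0.0825 from limma), and the difference between them was not tested. The small subunit gene Uqcr10 rose by 0.32 ± 0.06 (n = 3, adjusted p = 0.0129 from limma).

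The falls in complex III were in small subunits too. Uqcr11 had log2 ratios of -0.72, -0.29 and -0.54 (mean -0.52 ± 0.22, n = 3, adjusted p = 0.00948 from limma), which became 0.30 with median centring. This call rests on 1 of 3 probes. The other probes of the gene gave means of -0.08 and 0.29, the last past the threshold as higher (adjusted p = 0.0209 from limma) when it stood for the gene, and with the mean of all 3 the ratio was -0.10 (adjusted p = 0.272 from limma). Uqcrq, a subunit that binds ubiquinone, had -0.40, -0.11 and -0.47 (mean -0.33 ± 0.19, n = 3, adjusted p = 0.0335 from limma), against 0.03 with median centring, and with the deposited log ratio it was -0.49 and not called (adjusted p = 0.0588 from limma). Uqcrq also lost its call without replicate 1 (-0.29, adjusted p = 0.093 from limma). Uqcrb lay close to 0 on every array, at -0.08, -0.06 and -0.05 (adjusted p = 0.467 from limma), and became 0.74 with median centring.

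Promoters of a rising and a falling subunit of complex III are shown because they move in opposite directions while both hold the ETS core. The 250 bases before the start of each gene come from RefSeq (GRCr8), at chr1:184598990-184599239 on the plus strand for Uqcrc2 and chr10:38089979-38090228 on the minus strand for Uqcrq. Capitals mark matches on either strand to the ETS core CGGAAG, the NRF1 core GCATGCG, the YY1 motif AAGATGG or the motif AAGGTCA of estrogen-related receptors (ERR), factors known to act at promoters of respiratory genes. The ETS core and the ERR motif overlap in Uqcrq.
Uqcrc2: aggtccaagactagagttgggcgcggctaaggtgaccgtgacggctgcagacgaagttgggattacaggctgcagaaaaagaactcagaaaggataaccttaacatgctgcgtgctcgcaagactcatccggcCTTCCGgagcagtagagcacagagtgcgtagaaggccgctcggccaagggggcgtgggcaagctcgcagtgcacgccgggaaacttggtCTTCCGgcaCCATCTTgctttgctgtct
Uqcrq: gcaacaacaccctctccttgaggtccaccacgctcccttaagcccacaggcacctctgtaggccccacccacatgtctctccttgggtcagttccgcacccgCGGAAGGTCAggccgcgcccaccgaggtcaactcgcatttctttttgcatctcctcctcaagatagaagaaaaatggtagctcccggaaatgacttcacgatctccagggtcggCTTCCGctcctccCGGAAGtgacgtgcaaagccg

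The promoter table held 34 of the 42 tested genes. Within windows from 250 bases before to 50 after the start, the ETS core was found in 21 of the 34 promoters (61.8%), against 16.6% of all 33469 promoters and 30.9% of the 7327 promoters of tested genes with a symbol. For the NRF1 core, which overlaps with its own reverse complement in the longer palindrome, the shares were 20.6%, 3.33% and 6.06%. For the YY1 motif they were 26.5%, 7.01% and 8.41%, and for the ERR motif 14.7%, 4.61% and 3.18%. By direction, the ETS core was in 8 of 11 promoters of genes that rose, 2 of 4 of those that fell and 11 of 19 of the rest. For the NRF1 core these counts were 1, 0 and 6, for the YY1 motif 2, 0 and 7, and for the ERR motif 1, 1 and 3. By complex, the ETS core was in 5 of 6 promoters of complex III, 5 of 10 of complex IV and 11 of 14 of complex V. These are matches of letters and not measured binding.

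Cytochrome c, which carries electrons from complex III to complex IV, is encoded by Cycs. Its log2 ratios were 0.20, 0.26 and 0.01 on replicates 1, 2 and 3 (mean 0.16 ± 0.13, n = 3, adjusted p = 0.153 from limma). A dimmer probe of the gene gave 0.63, 0.16 and 0.52, and with that probe in its place Cycs passed the threshold at 0.44 (adjusted p = 0.0198 from limma), an alternative chosen after the data were seen. The mean of its probes also passed, at 0.30 (adjusted p = 0.0220 from limma). Both probes were above 0 on all arrays.

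In complex IV, 4 of 13 subunits rose and 2 fell (30.8% and 15.4%, beside 11.6% and 25.9% of all genes). The counts became 10 and 0 with median centring and 0 and 1 without replicate 3. Of all 14179 genes 4990 and 1245 were called with median centring and 182 and 1429 without replicate 3. The largest rise was in Cox6c, a subunit within the membrane, with log2 ratios of 0.71, 0.36 and 0.48 (mean 0.52 ± 0.17, n = 3, adjusted p = 0.00664 from limma) or 1.43-fold. The processed pseudogene Cox6c-ps1, which shares sequence with Cox6c so that their signals may mix, had 0.63, 0.29 and 0.44 (mean 0.45 ± 0.17, n = 3, adjusted p = 0.0101 from limma). Cox7c, a small subunit of the membrane part, rose to a similar degree, with 0.47, 0.31 and 0.47 (mean 0.42 ± 0.09, n = 3, adjusted p = 0.00719 from limma). The replicates of Cox7b were the closest together of these, at 0.32, 0.28 and 0.31, with a mean of 0.30 ± 0.02 (n = 3, adjusted p = 0.0144 from limma). That probe has 10 spots on each array, whose log2 ratios had an SD of 0.06, 0.02 and 0.06 on replicates 1, 2 and 3. Cox6a1 had 0.30, 0.15 and 0.30 (mean 0.25 ± 0.09, n = 3, adjusted p = 0.0344 from limma). With the deposited log ratio Cox6a1 (0.27, adjusted p = 0.0939 from limma) and Cox7b (0.33, adjusted p = 0.0537 from limma) kept their size and lost their calls, as Cox6a1 did with normexp offset 0 (0.33, adjusted p = 0.0526 from limma). Cox6a1 also lost its call without replicate 1 (0.22, adjusted p = 0.1195 from limma).

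The regulatory subunit gene Cox4i1 fell most in complex IV. Its log2 ratios were -0.77, -0.48 and -0.38 (mean -0.54 ± 0.20, n = 3, adjusted p = 0.00745 from limma), or 0.686-fold, and they were below 0 on each array, but the mean turned to 0.32 with median centring. The alternative isoform Cox4i2, which is known to be induced by low oxygen in lung, had 0.00, 0.07 and 0.19 (adjusted p = 0.384 from limma). Cox6b2, the isoform of testis, had -0.66, -0.31 and -0.39 (mean -0.45 ± 0.18, n = 3, adjusted p = 0.0109 from limma), and 0.21 with median centring. Its ubiquitous counterpart Cox6b1 had 0.55, -0.17 and 0.69, with replicate 2 on the other side of 0 (mean 0.35 ± 0.46, n = 3, adjusted p = 0.137 from limma). Without replicate 2 Cox6b1 passed at 0.62 (adjusted p = 0.0112 from limma). The second probe of Cox6b1 repeated this order at 0.44, -0.21 and 0.57, while the third gave 0.12, 0.16 and 0.15.

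The remaining subunits of complex IV gave small ratios after loess, while Cox5a (0.89), Cox8a (0.91) and Cox7a2 (0.87) were called higher with median centring. Cox5a, which takes part in allosteric control by thyroid hormone, had 0.28, 0.03 and 0.00 (adjusted p = 0.349 from limma). Cox5b, which holds a zinc ion, had -0.18, -0.28 and -0.10 (adjusted p = 0.0802 from limma), and 0.63 with median centring. Cox8a had 0.05, 0.05 and 0.08 (adjusted p = 0.486 from limma), and the muscle isoform Cox8b had -0.04, 0.00 and 0.09 (adjusted p = 0.860 from limma). Cox8b was dim, with a control log2 intensity of 6.39, 6.46 and 6.39 on replicates 1, 2 and 3. Cox7a2, the isoform outside muscle, had 0.03, 0.06 and 0.07 on its brightest probe (adjusted p = 0.541 from limma) and 0.58, 0.40 and 0.58 on a dimmer one, and it was called higher with the mean of its probes (0.28, adjusted p = 0.0177 from limma). Of the 16 isoform genes of complexes IV and V in a list drawn up for this purpose, 11 were tested, and 2 rose (Cox6a1 and Cox7b) and 3 fell (Cox4i1, Cox6b2 and Atp5mc1), with a median of 0.06. These calls are 18.2% and 27.3% of the 11, against 11.6% and 25.9% of all genes. With median centring 7 of the 11 were higher and 0 lower (median 0.87), beside 4990 and 1245 of all 14179 genes. With the deposited log ratio 0 and 3 of the 11 were called, beside 2147 and 3177 of all genes. The muscle isoform Cox6a2 was well above background in green on 2 arrays and in red on none, and Cox8c in neither colour on any.

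Complex V is built from a catalytic head that faces the matrix, a stalk, and a ring in the membrane through which protons pass. In all, 5 of its 15 tested subunits rose and 1 fell (33.3% and 6.67%, beside 11.6% and 25.9% of all genes). The counts became 14 and 0 with median centring and 1 and 0 without replicate 3. Of all 14179 genes 4990 and 1245 were called with median centring and 182 and 1429 without replicate 3. The head gave the largest rise of any member. Atp5f1c, the central shaft that turns within the head, had log2 ratios of 1.31, 0.27 and 1.00 (mean 0.86 ± 0.53, n = 3, adjusted p = 0.0160 from limma), or 1.82-fold. Atp5f1b, the catalytic subunit, had 0.90, 0.12 and 0.52 (mean 0.51 ± 0.39, n = 3, adjusted p = 0.0358 from limma). In both genes replicate 2 lay far below the other arrays, and the SD between the arrays was large. Atp5f1b was 0.32 and not called without replicate 1 (adjusted p = 0.0778 from limma), and its call was also lost with no replicate block. For Atp5f1b the 10 spots of the probe had an SD of 0.05, 0.09 and 0.07 on replicates 1, 2 and 3. The other head subunit genes gave little change after loess, with 0.13, 0.10 and 0.16 in Atp5f1a (adjusted p = 0.153 from limma, but 1.00 and called higher with median centring), -0.20, 0.09 and -0.12 in Atp5f1d (adjusted p = 0.481 from limma, but 0.70 with median centring) and 0.01, 0.02 and -0.07 in Atp5f1e (adjusted p = 0.887 from limma, but 0.88 with median centring).

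In the stalk that holds the head in place, Atp5pb had log2 ratios of 0.73, 0.28 and 0.35 (mean 0.45 ± 0.24, n = 3, adjusted p = 0.0180 from limma), a call lost with the deposited log ratio at a mean of 0.45 (adjusted p = 0.0582 from limma). The other stalk genes Atp5pd, Atp5po and Atp5pf had means of 0.13, 0.11 and 0.00, none past the threshold, and with median centring they were 0.93, 0.97 and 0.81 and all called higher. Among the small membrane subunits, Atp5mg rose with 0.57, 0.40 and 0.19 (mean 0.39 ± 0.19, n = 3, adjusted p = 0.0185 from limma) and Atp5mk, a subunit of the dimer interface, with 0.51, 0.27 and 0.32 (mean 0.37 ± 0.13, n = 3, adjusted p = 0.0140 from limma). Atp5mg lost its call without replicate 1 (0.30, adjusted p = 0.0581 from limma), without replicate 2 (0.38, adjusted p = 0.0632 from limma) and with no replicate block. The second probes of these genes gave 0.45 for Atp5mg and 0.17 for Atp5mk, the latter not past the threshold (adjusted p = 0.124 from limma). Atp5me had -0.26, 0.01 and -0.19 (adjusted p = 0.187 from limma, but 0.75 with median centring). Atp5mf had -0.23, -0.05 and 0.06 (adjusted p = 0.491 from limma, but 0.79 with median centring) on its brightest probe and 0.53, 0.35 and 0.61 on another.

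The ring that carries the protons is made of 1 protein encoded by several genes. Atp5mc1 fell, with -0.46, -0.41 and -0.47 (mean -0.45 ± 0.03, n = 3, adjusted p = 0.00452 from limma) or 0.734-fold, and with the least spread of the 5 falls, but it became 0.37 with median centring. Atp5mc2 had 0.13, 0.08 and 0.24 on the brightest probe (adjusted p = 0.131 from limma) and -0.22, -0.13 and -0.08 on the other, so its probes lay on opposite sides of 0 on every array. The promoters of the shaft gene, which rose, and of the ring gene, which fell, are set side by side with the same motifs in capitals, Atp5f1c at chr17:73333435-73333684 on the plus strand and Atp5mc1 at chr10:81523346-81523595 on the minus strand (RefSeq, GRCr8). The former holds the ETS core on both strands, and none of the 4 motifs is in the window of the latter. This pair was chosen by the direction of its genes. Across the members the ETS core was in 8 of 11 promoters of genes that rose and 2 of 4 of those that fell. A link between motif and direction was not tested.
Atp5f1c: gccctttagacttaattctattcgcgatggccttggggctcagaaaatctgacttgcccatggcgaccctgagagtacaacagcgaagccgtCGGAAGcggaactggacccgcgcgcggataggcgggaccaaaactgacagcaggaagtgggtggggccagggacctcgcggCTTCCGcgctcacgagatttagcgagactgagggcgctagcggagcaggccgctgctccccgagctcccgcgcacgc
Atp5mc1: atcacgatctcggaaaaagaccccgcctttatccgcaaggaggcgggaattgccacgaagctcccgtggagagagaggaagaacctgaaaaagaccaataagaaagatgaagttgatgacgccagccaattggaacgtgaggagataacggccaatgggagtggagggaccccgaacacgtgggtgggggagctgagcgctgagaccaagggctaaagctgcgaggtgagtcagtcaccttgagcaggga

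Regulators of the complexes gave no call after loess. Atp5if1, which blocks the reverse turning of the ATP synthase, had log2 ratios of 0.14, -0.02 and 0.14 (mean 0.09 ± 0.09, n = 3, adjusted p = 0.352 from limma). Cox7a2l, which helps to join complexes III and IV into supercomplexes, had 0.28, -0.03 and 0.15 (mean 0.13 ± 0.16, n = 3, adjusted p = 0.240 from limma). The genes known by the older symbols Atp5sl and Atp5s, now Dmac2 and Dmac2l, are assembly factors and not subunits. Dmac2 had -0.03, 0.30 and 0.28 (adjusted p = 0.143 from limma) and Dmac2l 0.05, 0.06 and -0.16 (adjusted p = 0.852 from limma). Both were dim, with control log2 intensities of 7.03, 6.55 and 6.68 in Dmac2 and 6.39, 6.47 and 6.64 in Dmac2l. With median centring Atp5if1 (0.86), Cox7a2l (0.88) and Dmac2 (0.41) were called higher and Dmac2l was at 0.01. Dmac2 also passed with the deposited log ratio (0.72, adjusted p = 0.0275 from limma) and without replicate 1 (0.29, adjusted p = 0.0487 from limma).

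Several members were measured by more than 1 probe. Of 9 such genes, 4 had probes with means on both sides of 0 (Uqcr11, Uqcrb, Atp5mc2 and Atp5mf), or 443 of 1146 (38.7%) among all genes with a symbol. The positive probe of Uqcrb was dim, at a mean log2 intensity of 7.12 against 12.69. In 6 of the 9 the dimmest probe gave a higher ratio than the brightest, against 57.2% of all such genes. Gaps between the means of probes were often larger than the SD of either over the arrays, as in Cox7a2, Atp5mf, Uqcr11, Uqcrb, Atp5mc2, Atp5mk and Cycs. The transcripts that each probe detects were not examined.

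**Figure D2:**
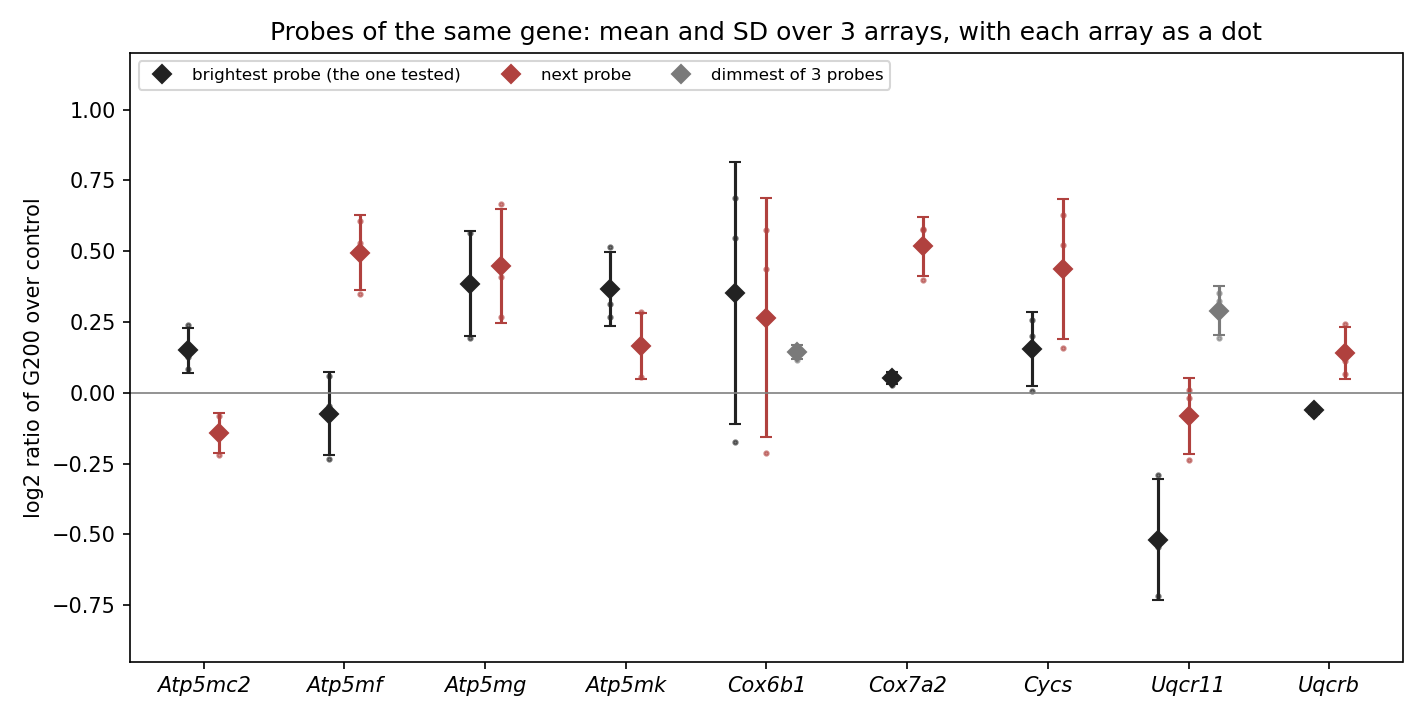
Log2 ratio of G200 over control (y axis) for each passing probe of the 9 members with several probes (x axis), ordered by brightness within a gene; diamonds and bars are the mean and SD over 3 arrays and dots are single arrays. The probes of Uqcr11 range from -0.52 to 0.29 and those of Atp5mf from -0.07 to 0.49, so the sign depends on the probe; the negative means of the tested probes turned positive with median centring.

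Compared as groups, complex III had a median log2 ratio of 0.27 (0.38, 0.15 and 0.24 on replicates 1, 2 and 3). Complex V had a median of 0.13 (0.09, 0.10 and 0.16) and complex IV of 0.08 (0.05, 0.05 and 0.09). The order was the same on every array. The median of complex III exceeded that of complex IV by 0.20 ± 0.13 (SD over 3 arrays) and that of complex V by 0.14 ± 0.13, while complexes IV and V differed by 0.05 ± 0.01. No test was run on these differences, and they are small beside the range within each complex, which spans -0.52 to 0.57 in complex III, -0.54 to 0.52 in complex IV and -0.45 to 0.86 in complex V.

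**Figure D3:**
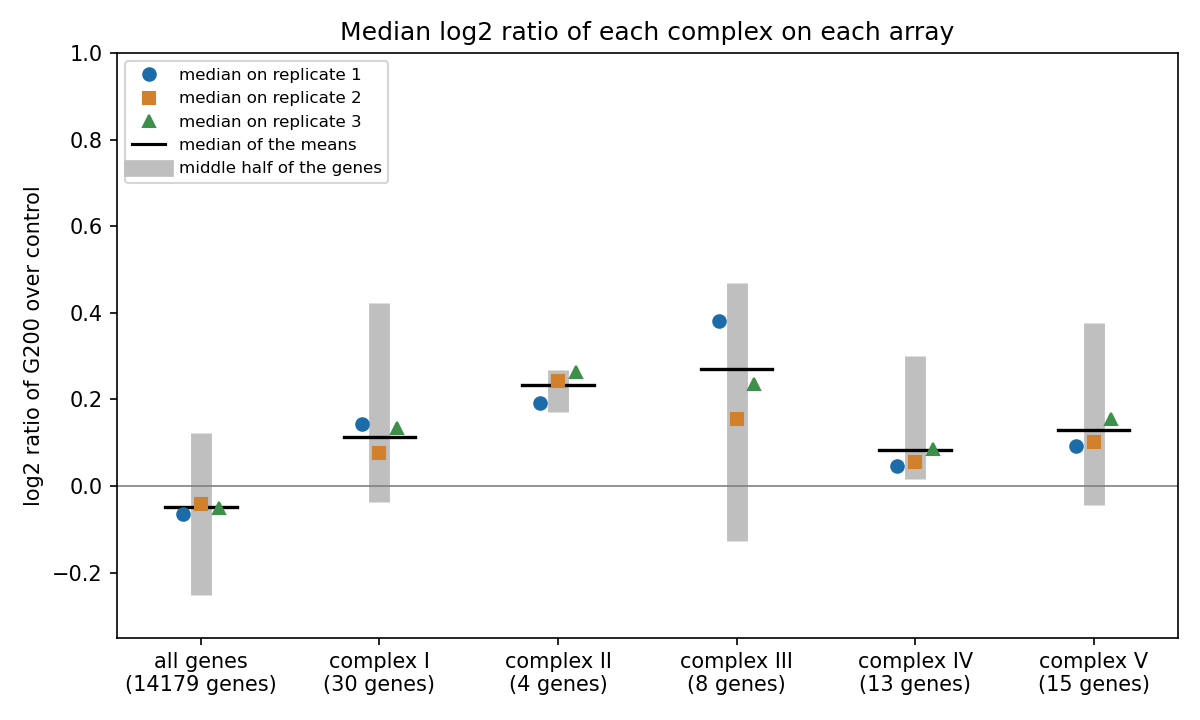
Median log2 ratio of G200 over control (y axis) over the tested genes of respiratory complexes I to V and over all genes (x axis), on each of 3 arrays (symbols) and for the mean of the arrays (lines), with grey bars from the lower to the upper quartile of the genes. The medians of complexes III, IV and V are 0.27, 0.08 and 0.13 against -0.05 for all genes, and the bars of complexes III, IV and V overlap.

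Complexes I and II were set beside these. Of 30 tested subunits of complex I, which feeds electrons from NADH into the chain, 12 rose and 5 fell. These are 40% and 16.7%, beside 11.6% and 25.9% of all genes. The median of complex I was 0.11 (0.14, 0.08 and 0.13 on replicates 1, 2 and 3). The extremes were Ndufs1 at 0.71 (adjusted p = 0.00397 from limma) and Ndufv3 at -0.58 (adjusted p = 0.00500 from limma), and all 5 falls turned positive with median centring, where 25 subunits were called higher and 0 lower. The counts were 6 and 4 with the deposited log ratio and 2 and 2 without replicate 3. Of all 14179 genes 4990 and 1245 were called higher and lower with median centring. With the deposited log ratio 2147 and 3177 were, and without replicate 3 182 and 1429 were. Of the 4 subunits of complex II, which oxidises succinate, 3 rose, the largest being Sdha at 0.38 ± 0.03 (n = 3, adjusted p = 0.00747 from limma), and the median was 0.23. The share called higher in complex II after loess was 75%, of only 4 genes. In complex II 4 were called higher with median centring (median 0.995), 1 with the deposited log ratio and 0 without replicate 3. Complex V differed from complex I by 0.00 ± 0.04 (SD over 3 arrays) in its median, complex III by 0.14 ± 0.09 and complex IV by -0.06 ± 0.04, and none of these differences was tested.

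The scaling between the dyes set the size of these medians. With no normalization the median of all genes was 0.62 and with median centring 0.27, in place of -0.05. Complexes III, IV and V reached 0.99, 0.89 and 0.97 with median centring, which is 0.72, 0.62 and 0.70 above all genes. After loess they stood 0.32, 0.13 and 0.18 above all genes. With the deposited log ratio the distances were 0.43, 0.16 and 0.22. The sign of the 3 medians was positive under each scaling, and complex III remained the highest and complex IV the lowest of the 3.

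**Figure D4:**
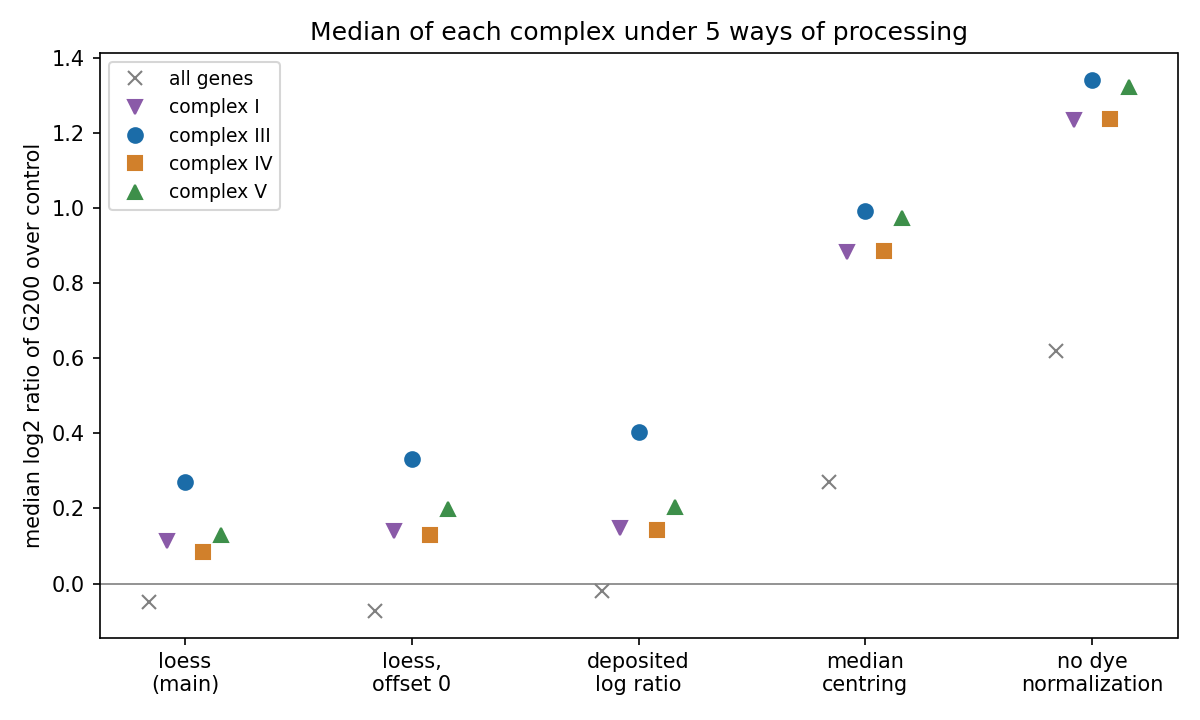
Median log2 ratio of G200 over control (y axis) of complexes I, III, IV and V and of all genes under 4 scalings of the dyes and with normexp offset 0 (x axis), each point being 1 median. Complex III moves from 0.27 after loess to 1.34 with no normalization, and all genes from -0.05 to 0.62.

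Genes that build the complexes moved in both directions after loess, as all genes did (11.6% higher and 25.9% lower). With median centring 4990 of all 14179 genes were called higher and 1245 lower. With the deposited log ratio 2147 and 3177 of all genes were called, and without replicate 3 182 and 1429. Of 7 tested assembly factors of complex III, 1 rose and 2 fell (14.3% and 28.6%, median -0.10, but 0.28 with median centring). Without replicate 3 the calls were 0 and 1. Uqcc6 fell most, with log2 ratios of -1.14, -1.02 and -1.01 on replicates 1, 2 and 3 (mean -1.06 ± 0.07, n = 3, adjusted p = 7.32e-04 from limma), or more than 2-fold, and it stayed negative with median centring at -0.45 (adjusted p = 0.0410 from limma), while with no normalization it was -0.10 and not called (adjusted p = 0.685 from limma). Uqcc1 rose by 0.36 ± 0.08 (n = 3, adjusted p = 0.0102 from limma). Of 20 factors of complex IV, 4 rose and 3 fell (20% and 15%, median 0.02). Calls were 9 and 0 with median centring, 5 and 0 with the deposited log ratio and 0 and 0 without replicate 3. Coa4 had the largest rise at 0.41 ± 0.07 (n = 3, adjusted p = 0.00655 from limma) and Pet100 the largest fall at -0.48 ± 0.26 (n = 3, adjusted p = 0.0170 from limma), which became 0.20 with median centring. For complex V 6 listed genes were tested, among them Dmac2 and Dmac2l, and 1 rose and 1 fell (16.7% each, median 0.17). Tmem242 rose by 0.32 ± 0.13 (n = 3, adjusted p = 0.0201 from limma). Atpaf2 fell to -0.31 ± 0.05 (n = 3, adjusted p = 0.0137 from limma, but 0.28 with median centring). Calls among the 6 were 3 and 0 with median centring and 0 and 0 without replicate 3. They were 2 and 0 with the deposited log ratio, in Dmac2 and Tmem70, where Tmem242 was not called (adjusted p = 0.0567 from limma).

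Other genes of the pathway were few. Ndufa4, a complex IV subunit outside the naming rule, had a mean of 0.03 (adjusted p = 0.765 from limma). It was 0.86 and called higher with median centring (adjusted p = 0.0174 from limma). No probe was matched to the subunits encoded by mitochondrial DNA. All 6 tested carriers and channels for nucleotides and phosphate had a positive mean (median 0.17), and after loess the adenine nucleotide carrier Slc25a5 alone passed, with 0.87, 0.09 and 0.60 (mean 0.52 ± 0.39, n = 3, adjusted p = 0.0339 from limma). That call is 16.7% of the 6, beside 11.6% of all genes. All 6 were called higher with median centring, where 4990 of all 14179 genes were. With normexp offset 0 or without replicate 3 none of the 6 was. Among 12 regulators of mitochondrial gene expression 2 rose and 2 fell (median 0.03), or 16.7% each, against 11.6% and 25.9% of all genes. Calls were 5 and 0 with median centring (median 0.23, against 0.27 over all genes) and 0 and 0 without replicate 3. Gabpa, a factor that binds the ETS core, rose by 0.34 ± 0.09 (n = 3, adjusted p = 0.0140 from limma), and its partner Gabpb1 fell to -0.22 ± 0.06 (adjusted p = 0.0430 from limma), which became 0.29 with median centring. Gabpb1 was not called with the deposited log ratio (adjusted p = 0.162 from limma) or normexp offset 0 (adjusted p = 0.082 from limma). The mitochondrial RNA polymerase gene Polrmt fell to -0.45 ± 0.03 (n = 3, adjusted p = 0.00429 from limma), and this became 0.03 with median centring. Tfam, which packages mitochondrial DNA, rose by 0.26 ± 0.05 (n = 3, adjusted p = 0.0253 from limma). Its call was lost with normexp offset 0 (0.30, adjusted p = 0.0647 from limma).

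Markers of kidney cells were present. The proximal tubule, a segment rich in mitochondria, had 11 of 12 markers tested, of which 3 rose and 1 fell (median 0.24). The shares called were 27.3% and 9.09%, beside 11.6% and 25.9% of all genes. The tubule counts became 8 and 0 with median centring, 1 and 0 with the deposited log ratio and 0 and 0 without replicate 3. Of all 14179 genes 4990 and 1245 were called with median centring. With the deposited log ratio 2147 and 3177 were, and without replicate 3 182 and 1429 were. The markers had a summed intensity of 88160, 65370 and 75360 in the control and 79470, 60530 and 70650 in G200 on replicates 1, 2 and 3. Miox was the brightest marker in this sum. Among the called markers Cubn rose most, at 0.45 (adjusted p = 0.0351 from limma). Slc5a2 had a larger mean of 0.66 that was not called (adjusted p = 0.105 from limma). The fall was in Miox at -0.25 (adjusted p = 0.0368 from limma, but 0.65 with median centring). For the thick ascending limb 3 of 6 markers rose (50%, median 0.25), Umod most at 0.87 (adjusted p = 0.00101 from limma). Calls were 5 and 0 with median centring, 3 and 0 with the deposited log ratio and 1 and 0 without replicate 3. Slc12a1 was not called and lay below 0 on all arrays, at -0.11, -0.13 and -0.31. The summed intensity was 39830, 36780 and 39140 in the control and 66120, 56370 and 60040 in G200, with Umod the brightest marker. Fewer cells of a type and less RNA per cell cannot be told apart in whole tissue, and the part of either segment in the ratios of the respiratory genes was not tested.

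Other segments gave fewer calls. Of all genes 11.6% were called higher and 25.9% lower after loess, and 4990 and 1245 of 14179 with median centring. With the deposited log ratio 2147 and 3177 of all genes were called. The distal convoluted tubule had 1 of 4 markers tested, Slc12a3, with log2 ratios of 1.23, 0.00 and -0.20, and Pvalb and Calb1 did not pass the filter. The 5 tested markers of principal cells of the collecting duct gave no call after loess (median 0.17), whereas 4 were called higher with median centring (median 0.66) and 1 with the deposited log ratio. Of 4 endothelial markers Pecam1 fell to -0.56 (adjusted p = 0.00235 from limma), which became 0.14 with median centring, and the median went from -0.10 to 0.34. Of 5 leukocyte markers Cd74 and Lyz2 rose, Lyz2 most at 0.60 (adjusted p = 0.00874 from limma, median 0.10).

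Liver markers moved far more than the respiratory genes. Of all genes 25.9% were called lower after loess. All 9 tested liver markers fell, with a median of -3.09 (-1.66, -3.27 and -4.40 on replicates 1, 2 and 3), and all 9 stayed negative with median centring. Apoc1 fell most, at -4.05 (adjusted p = 0.00386 from limma). The summed intensity of these markers was 125308, 129731 and 152729 in the control and 34160, 10070 and 3776 in G200, while Tat and Cps1 did not pass the filter. Of the red cell markers 4 were tested, and Slc4a1 fell to -0.68 (adjusted p = 0.00348 from limma, but 0.34 with no normalization), with a median over the list of -0.50 that became 0.27 with median centring and -0.10 without replicate 3. Their summed intensity was 108826, 98170 and 115945 in the control and 113239, 84370 and 43080 in G200, lowest on replicate 3. Skeletal muscle had 2 of 8 markers tested and no call after loess (median -0.10, but 0.33 with no normalization), with Acta1, Ckm, Myh1, Myh2, Myh4 and Tnnt3 not past the filter. Actn3 was called lower with the deposited log ratio (-1.92, adjusted p = 0.00488 from limma) and with normexp offset 0 (-0.55, adjusted p = 0.0142 from limma), though it was 0.03 with no normalization. Of 4 adipose markers Cfd fell to -0.79 (adjusted p = 0.0240 from limma), and the median of -0.02 became 0.21 with median centring. Cfd was not called with median centring (-0.57), with the deposited log ratio (-1.69) or without replicate 3 (-0.58). Ucp1 was called higher with the deposited log ratio (1.31, adjusted p = 0.0026 from limma) and with normexp offset 0 (0.57, adjusted p = 0.011 from limma). The part of liver and blood signal in the respiratory ratios was not tested.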

How the data were processed

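The deposited files hold, for each spot, median red and green pixel intensity with the local background, which the authors obtained with Agilent Feature Extraction before any subtraction or normalization. Per the file headers, the deposited log10 ratio is red over green after background subtraction and LOWESS dye normalization in the same program. The labels name version 9.3.2.1 and the headers 11.5.1.1.

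Intensities were corrected by normexp (offset 50) and loess within arrays in limma 3.58.1 under R 4.3.3. Replicate spots were averaged, probes well above background in 1 channel on all 3 arrays were kept, and the brightest probe stood for a gene. Probes were matched to RefSeq genes by the accession they carry, 60.4% of 30367 with success, and the others entered the test under their accession. The mean log2 ratio was tested against 0 by limma's moderated t-test with Benjamini-Hochberg adjustment over 14179 genes. The array was the block, because both dyes share it. That the control is the same material on each array was assumed from the spread between arrays alone, and that G200 differs between them from the labels and that spread.

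Members and lists were chosen with earlier results of these data known. Named genes are those past the threshold, with the largest ratios, or with a role the text gives, and genes outside the naming rule were named after their values were seen. Results of every list are in the text except for a marker list left out because it holds an item withheld for evaluation. In simulated data of the same layout most log2 changes of 1 were recovered, smaller ones less often, and the limit set for recovery was lowered after its value was seen. Alternatives covered background, dye normalization, filter, probe choice, test, block and the leaving out of each array.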

Additional observations from a re-analysis of the deposited data

How the results depend on the processing

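With median centring 35 members were called higher and 0 lower, in place of 14 and 5, and 4990 and 1245 of all genes, in place of 1638 and 3678. The medians of complexes III, IV and V were 0.99, 0.89 and 0.97, in place of 0.27, 0.08 and 0.13. The 13 members with a negative mean turned positive: Uqcr11 0.30, Uqcrb 0.74, Uqcrq 0.0338, Cox4i1 0.32, Cox5b 0.63, Cox6b2 0.21, Atp5f1d 0.70, Atp5f1e 0.88, Atp5mc1 0.37, Atp5me 0.75, Atp5mf 0.79, Atp5pf 0.81 and Dmac2l 0.0119. No normalization between the dyes differs from median centring only by a constant on each array. With it 39 members were called higher and 0 lower, of all genes 8010 and 304, and the medians of complexes III, IV and V were 1.34, 1.24 and 1.32. By that shift the same 13 genes had higher values: Uqcr11 0.65, Uqcrb 1.09, Uqcrq 0.38, Cox4i1 0.67, Cox5b 0.98, Cox6b2 0.56, Atp5f1d 1.05, Atp5f1e 1.23, Atp5mc1 0.72, Atp5me 1.0996, Atp5mf 1.14, Atp5pf 1.16 and Dmac2l 0.36. Of the 5 members called lower after loess, 4 were called higher with no normalization (Uqcr11, Cox4i1, Cox6b2 and Atp5mc1), and Uqcrq was not called. The cause of these shifts was not tested.

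With the deposited Feature Extraction log ratio the medians of complexes III, IV and V were 0.40, 0.14 and 0.20, and Atp5f1e (0.16), Atp5mf (0.0311), Atp5pf (0.0574) and Dmac2l (0.0082) turned positive. With it 12 members were called higher and 4 lower, beside 2147 and 3177 of all 14179 genes. Of the 19 calls, Uqcrq, Cox6a1, Cox7b and Atp5pb were lost, and Dmac2 was gained. The ratio was not smaller in Uqcrq, Cox6a1 and Cox7b, and in Atp5pb it was 0.447 in place of 0.449. With normexp offset 0, 13 members were called higher and 5 lower, beside 1520 and 3457 of all genes. The medians of complexes IV and V were then 0.13 and 0.20, and Atp5f1e (0.10), Atp5mf (0.0128) and Atp5pf (0.0443) turned positive. With no background subtraction Atp5f1e (0.0094) and Atp5pf (0.0007) did so. With no filter on dim probes complex IV had a median of 0.0595, and with a filter on both channels all 42 members kept their result.

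With the mean of all probes of a gene Uqcrb (0.0393) and Atp5mf (0.21) turned positive, Uqcr11 lost its call, and Cycs (0.30) and Cox7a2 (0.28) were called higher, so that 16 members were higher and 4 lower. The dimmest passing probe was added as an alternative after the data were seen. With it Uqcr11 (0.29), Uqcrb (0.14) and Atp5mf (0.49) turned positive and Atp5mc2 (-0.14) negative. Cycs (0.44), Cox7a2 (0.52), Atp5mf and Uqcr11 were called higher and Atp5mk lost its call, for counts of 17 and 4. The shares of all genes called with the mean of probes or the dimmest probe are not given here, so these member counts stand without a background.

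The methods' t-test compares 2 groups. Run against 0 on the ratios of the 3 arrays, which has 1 group, and adjusted, it called 0 members higher and 0 lower, and 0 and 2 of all genes. Unadjusted it called 12 members higher and 3 lower, and 1382 and 3093 of all genes. On the 2 channels, which were scaled between arrays only after a first run without scaling gave no calls, the methods' t-test, adjusted, called 1 member higher and 0 lower, and 61 and 303 of all genes, and unadjusted 4 members higher and 4 lower, and 1096 and 3101 of all genes. With robust eBayes the calls of all 42 members were unchanged. These tests give no medians of their own. With separate channels and no replicate block, 9 members were called higher and 4 lower, and 1049 and 3062 of all genes, and Uqcr10, Uqcrq, Cox7c, Atp5f1b, Atp5mg and Cox6c-ps1 lost their call. A block for the slide was not run, since all arrays are on 1 slide read in 1 scan.

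Leaving out 1 array at a time gave 1 to 14 members called higher and 1 to 5 lower, and 182 to 1616 of all genes higher and 1429 to 3349 lower. Without replicate 1, 862 of all genes were called higher. The lowest member counts, 1 and 1, and the lowest counts of all genes, 182 and 1429, came without replicate 3. The medians ranged over 0.21 to 0.31 for complex III, 0.0501 to 0.0920 for complex IV and 0.0951 to 0.1313 for complex V. Means crossed 0 in Cox8b (-0.0185 without replicate 3 to 0.0439 without replicate 1), Atp5f1e (-0.0278 without replicate 2 to 0.0135 without replicate 3), Atp5mf (-0.1402 without replicate 3 to 0.0053 without replicate 1), Atp5pf (-0.0565 without replicate 2 to 0.0726 without replicate 1) and Dmac2l (-0.0577 without replicate 2 to 0.0530 without replicate 3).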
